A study of Mus musculus with 6 samples.

Results

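The genes of glucose uptake, glycolysis and the response to low oxygen were examined in CD8+ T cells recovered from mouse melanomas, 32 genes of the 43629 in the count table. They were taken from a list of symbols: 19 genes carry glucose into the cell, break it down to pyruvate or handle the lactate made from it, and 13 belong to the hypoxia response. B16-OVA cells, a mouse melanoma line carrying ovalbumin as a model antigen, had been grown under the skin of C57BL/6 mice, and the tumours were taken on day 14 and pooled. The infiltrating cells (CD8+ TCR+ by the series description, TCRB+ CD3 by the extraction protocol) were sorted into L-Pha low and L-Pha high, with 3 libraries of bulk 3' RNA sequencing in each group. L-Pha is a plant lectin that binds branched N-glycans, so the groups differ in how much L-Pha their surface bound. Nothing in the labels tells whether each library had its own pool of tumours. The p-values therefore measure library-to-library spread alone, and that spread may be technical.

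Glycolysis turns glucose into pyruvate in the cytosol, and T cells that have been activated run it at a high rate even with oxygen at hand, reducing much of the pyruvate to lactate. When oxygen is short, the prolyl hydroxylases of the EGLN family no longer mark HIF-1α for destruction, and the HIF complex binds short DNA cores in the promoters of glucose transporter, glycolytic, angiogenic and mitophagy genes and raises their transcription. The hexosamine branch that leaves glycolysis early makes the donor sugar with which N-glycans are branched, which ties glucose metabolism to what L-Pha binds.

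The libraries held 2610729 to 3521117 counts, and every one of the 32 genes had counts, from 90 for Egln3 to 16348 for Pgk1 over the 6 libraries together. Levels are given as CPM, counts scaled to a common library size after TMM normalization between libraries. Only the 3' ends of transcripts were sequenced, and differences are tested between libraries. Where counts of several genes are summed or set against each other, no difference between genes was tested. Markers of the labelled cell type were detected, beside those of melanoma, blood and stromal cells. Cd8a stood at 56.6 to 216 CPM across the L-Pha low libraries and 91.0 to 160.5 CPM across the L-Pha high libraries, and Cd4 had 0 to 4 counts per library. All 17 T cell identity genes had counts, and together they took 0.0386% to 0.0968% of the counts of an L-Pha low library and 0.0547% to 0.0887% of an L-Pha high library. All 15 melanoma genes had counts too and took 1.01% to 1.79% and 1.29% to 1.96%, with Dct, a pigment enzyme of the melanocyte lineage, at 7919 to 14038 CPM. Erythroid genes took 0.168% to 0.306% and 0.0766% to 0.227%, macrophage and monocyte genes 0.0359% to 0.0405% and 0.0319% to 0.0507%, and each list for neutrophils, fibroblasts, endothelium, B cells, dendritic cells, NK cells and keratinocytes at most 0.0377%, with Krt5 at 0 to 1 counts. A non-coding transcript, Gm42418, took between 9.59% and 24.96% of a library. In bulk RNA fewer cells of a type and less RNA per cell cannot be told apart, and the part of tumour RNA in the values below was not tested.

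None of the 32 genes passed the test of a difference between L-Pha high and L-Pha low after adjustment over all genes. All 32 passed the filter on low counts, and by edgeR's quasi-likelihood test with Benjamini-Hochberg adjustment 0 of 32 were called at an adjusted p of 0.05, beside 0.00894% of the 11183 genes tested, which is 1 gene. At an unadjusted p under 0.05 there were 2 of the 32, Ddit4 and Pfkm, a share of 6.25% beside 3.81% of all genes tested. DESeq2 also called 0 of the 32, beside 0.237% of all genes it adjusted, and edgeR without a filter on low counts called 0 of the 32 beside 0.215%. With limma-voom, and with limma on the deposited log2 values, 0 of the 32 were called beside 0.0% of all genes. The point values lay lower in L-Pha high for 21 genes and higher for 11, where 50.6% of all genes tested lay lower. The median log2 fold change, always L-Pha high minus L-Pha low, was -0.11 over the 19 glycolysis genes and -0.11 over the 13 hypoxia genes, against -0.01 over all genes tested. With library totals alone as the scaling these medians were 0.011 and -0.0059 and that of all genes moved to 0.10. The glycolysis median came to 0.047 without L-Pha low library 2 and the hypoxia median to 0.079 without L-Pha low library 1. The sign is not settled for most of them: 18 of the 32 genes changed sign in at least 1 alternative analysis and 14 kept it in each one run.

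The size of the differences that remain compatible with the data is bounded. For 25 of the 32 genes (78.1%) the 95% interval of the fold change lay inside 2-fold in either direction, which held for 51.6% of all genes tested. These shares are not matched for counts, and intervals tend to narrow as counts rise. The median gene tested had 322 counts over the 6 libraries, and all of the 32 genes but Egln3, Pfkm and P4ha2 had more. The 7 genes with wider intervals were Slc2a1, Slc2a3, Pfkm, Gapdh, Egln3, Adm and Ddit4, and their intervals ran from as low as -2.10 for Pfkm to as high as 1.43 for Egln3 on the log2 scale. In 6 of the 32 genes (18.75%) the 3 values of one group all lay on one side of the 3 values of the other, which held for 8.38% of all genes tested. Hk1, Egln3, Ddit4 and Hif1a were the 4 with all L-Pha high values above, beside 4.25% of all genes tested, and Aldoc and Bnip3 the 2 with all L-Pha high values below, beside 4.13%. This count rested on the scaling, at 3 of 32 with library totals alone (9.27% of all genes). Leaving out a library can only keep or raise such a count. It was 12 without L-Pha low library 3 (28.8%) and 10 without L-Pha high library 3 (15.7%).

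**Figure D1:**
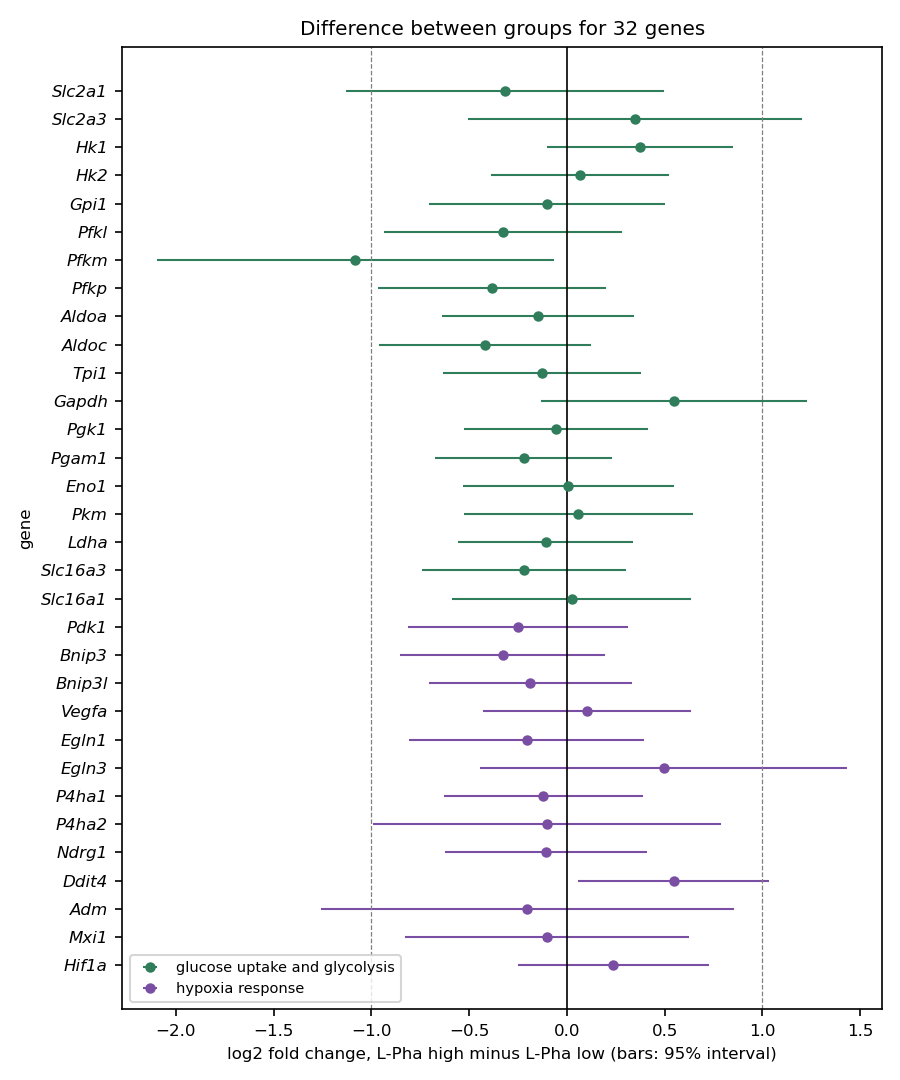
The horizontal axis gives the log2 fold change of L-Pha high minus L-Pha low for each of the 32 genes (vertical axis), with a point for the edgeR estimate and a bar for its 95% interval, green for the 19 glycolysis genes and purple for the 13 hypoxia genes. The intervals of Ddit4 and Pfkm are the 2 that leave out 0, and the dashed lines mark a 2-fold difference in each direction.

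The short core that HIF binds was present near the start of most of these genes, many of which are known as its targets. The letters searched were ACGTG and GCGTG on both strands, within 300 bases per start site (250 before it and 50 after it) as RefSeq gives them for GRCm38.p6. A promoter was listed for 29 of the 32 genes (Slc2a3, Bnip3l and Ndrg1 had no entry). ACGTG was present in 22 of the 29 genes (75.9%), against 30.1% of the 7855 tested genes that have a promoter in the table. GCGTG was present in 19 of 29 (65.5% against 57.4%), and at least 1 of these cores in 27 of 29 (93.1% against 69.1%). CACGTG, the palindrome that holds ACGTG on both strands and that MYC-family factors bind, was present in 5 of 29 (17.2%) and in 943 of the 7855. With the window of highest GC content taken for each gene, the 29 genes had a median of 65.7% against 62.3%. By window the median was 63.2% against 61%, and there were 1.52 windows per gene against 1.28. A gene with several start sites counts as holding a core if any of its windows does, and by window ACGTG was present in 56.8% against 25.9%. A match of letters is a description and shows no binding.

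The 250 bases before the start site are printed for 5 genes: Ddit4 and Hif1a, whose L-Pha high values all lay above, Aldoc and Bnip3, whose values all lay below, and Ldha, which had 7 cores in its window. Each runs 5′ to 3′ toward the start site, and capitals mark ACGTG or GCGTG read on either strand (CACGT and CACGC on the printed strand). For Hif1a, Ldha, Aldoc and Bnip3 the RefSeq start lies inside the Ensembl gene that was counted. The stretches of Hif1a and Ldha lie wholly within that gene and those of Aldoc and Bnip3 in part. Ldha and Aldoc also have another listed window, which is not printed. The Ddit4 stretch is chr10:59951771-59952020 on the minus strand, Hif1a chr12:73907617-73907866 on the plus strand, Aldoc chr11:78322823-78323072 on the plus strand, Bnip3 chr7:138909507-138909756 on the minus strand and Ldha chr7:46845554-46845803 on the plus strand.
Ddit4: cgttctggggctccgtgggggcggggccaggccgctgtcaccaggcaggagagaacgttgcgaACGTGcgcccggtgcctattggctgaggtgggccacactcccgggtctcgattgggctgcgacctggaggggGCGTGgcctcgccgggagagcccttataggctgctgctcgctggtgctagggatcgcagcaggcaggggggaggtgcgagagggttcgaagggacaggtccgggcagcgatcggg
Hif1a: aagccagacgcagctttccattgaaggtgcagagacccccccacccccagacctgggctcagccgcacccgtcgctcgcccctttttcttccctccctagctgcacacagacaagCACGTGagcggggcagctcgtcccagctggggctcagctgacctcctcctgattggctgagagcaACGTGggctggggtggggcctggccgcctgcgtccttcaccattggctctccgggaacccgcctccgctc
Aldoc: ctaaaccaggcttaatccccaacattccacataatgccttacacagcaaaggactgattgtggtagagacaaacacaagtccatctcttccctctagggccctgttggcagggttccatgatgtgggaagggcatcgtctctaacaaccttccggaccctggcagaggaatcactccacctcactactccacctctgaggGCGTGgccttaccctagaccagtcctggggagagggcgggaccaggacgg
Bnip3: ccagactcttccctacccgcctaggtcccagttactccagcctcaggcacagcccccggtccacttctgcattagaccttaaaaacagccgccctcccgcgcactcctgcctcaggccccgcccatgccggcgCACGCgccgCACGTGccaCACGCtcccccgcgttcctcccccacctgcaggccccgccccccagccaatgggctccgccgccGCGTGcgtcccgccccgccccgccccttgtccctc
Ldha: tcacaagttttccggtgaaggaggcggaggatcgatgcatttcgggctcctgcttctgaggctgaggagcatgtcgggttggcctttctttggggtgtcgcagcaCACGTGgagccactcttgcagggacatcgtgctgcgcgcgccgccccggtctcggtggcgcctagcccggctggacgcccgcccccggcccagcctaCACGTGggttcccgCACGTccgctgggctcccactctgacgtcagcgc
A CACGTG holds ACGTG on both strands and counts as 2 matches, so these stretches hold ACGTG 5 times in Ldha, 3 times in Hif1a, 2 times in Bnip3 and 1 time in Ddit4. Aldoc had 0 before its start and 1 in the 50 bases after it, with GCGTG found 1 time before the start. At least 1 core was present in 27 of the 29 genes, so its presence says nothing about the direction of a difference. None of the differences of Ddit4, Hif1a, Aldoc, Bnip3 and Ldha passed the test.

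Glucose import and its first phosphorylation showed no called difference, and Hk1 was the member of this step whose groups did not overlap. Slc2a1 and Slc2a3 encode the facilitative transporters GLUT1 and GLUT3. Slc2a1 ranged over 21.1 to 65.3 CPM in L-Pha low and 26.1 to 53.7 CPM in L-Pha high, with a log2 fold change of -0.32 (SE 0.38) that came to 0.02 without L-Pha low library 1. Slc2a3 ranged over 10.7 to 41.2 CPM in L-Pha low and 29.1 to 47.3 CPM in L-Pha high, with a log2 fold change of 0.35 (SE 0.40) that came to -0.05 without L-Pha low library 3. Library 3 was the lowest of its group for both transporters, and the groups overlapped. Hexokinases trap glucose in the cell as glucose 6-phosphate. Hk1 (ENSMUSG00000037012, chr10:62268855-62379908, minus strand) stood at 129, 117 and 108 CPM in L-Pha low libraries 1, 2 and 3 and 151, 176 and 131 CPM in L-Pha high libraries 1, 2 and 3. All 3 L-Pha high values lay above the highest L-Pha low value, by a narrow margin for library 3. The means were 118 ± 10.7 CPM (SD, n = 3) in L-Pha low and 153 ± 22.4 CPM (SD, n = 3) in L-Pha high, and the log2 fold change was 0.37 (SE 0.22) with a 95% interval of -0.10 to 0.85 and an edgeR p of 0.116 (adjusted p = 1.00), and it came to 0.25 without L-Pha high library 2. Hk2, the inducible hexokinase and a classical HIF target, ranged over 339.9 to 395 CPM in L-Pha low and 315 to 430.0 CPM in L-Pha high, with a log2 fold change of 0.07 (SE 0.21) and overlapping groups.

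Phosphofructokinase commits the sugar to glycolysis, and none of the 3 genes for its subunits was called or had groups that did not overlap. Pfkm (ENSMUSG00000033065, chr15:98092589-98132447, plus strand), the muscle-type subunit, stood at 13.5, 8.63 and 4.07 CPM in L-Pha low libraries 1, 2 and 3 and 4.23, 4.49 and 3.64 CPM in L-Pha high libraries 1, 2 and 3, from 120 counts in all. L-Pha low libraries 1 and 2 were the high ones, while L-Pha low library 3 lay among the L-Pha high values, so the groups overlapped. Its log2 fold change was -1.08 (SE 0.47) with a 95% interval of -2.10 to -0.07 and an edgeR p of 0.038 (adjusted p = 1.00). The value came to -0.62 without L-Pha low library 1 and to -1.41 without L-Pha low library 3, where its adjusted p by edgeR was 0.271, the lowest of any of the 32 genes in any alternative. Pfkp (ENSMUSG00000021196, chr13:6579768-6648777, minus strand), the platelet-type subunit, stood at 64.3, 102 and 55.8 CPM in L-Pha low libraries 1, 2 and 3 and 61.4, 62.3 and 46.7 CPM in L-Pha high libraries 1, 2 and 3. Its L-Pha high values lay within or just under the range of L-Pha low, where library 2 was high, and its log2 fold change was -0.39 (SE 0.27), or -0.086 without that library, with an edgeR p of 0.178 (adjusted p = 1.00). Pfkl (ENSMUSG00000020277, chr10:77986947-78010083, minus strand), the liver-type subunit, stood at 39.2, 44.5 and 24.4 CPM in L-Pha low libraries 1, 2 and 3 and 33.6, 25.4 and 27.1 CPM in L-Pha high libraries 1, 2 and 3. L-Pha low libraries 1 and 2 lay above every L-Pha high value and L-Pha low library 3 below them all, with a log2 fold change of -0.33 (SE 0.28) and an edgeR p of 0.270 (adjusted p = 1.00). It came to -0.15 without L-Pha low library 2 and to -0.54 without L-Pha low library 3.

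In the other steps that lead to the triose phosphates, the 3 L-Pha high values of Aldoc lay below those of L-Pha low, and the rest overlapped. Aldoc (ENSMUSG00000017390, chr11:78322968-78327781, plus strand), which encodes the brain-type aldolase, stood at 40.5, 33.1 and 37.7 CPM in L-Pha low libraries 1, 2 and 3 and 30.2, 23.4 and 29.8 CPM in L-Pha high libraries 1, 2 and 3. The nearest neighbours, L-Pha high library 1 and L-Pha low library 2, lay at 30.2 and 33.1 CPM. The means were 37.1 ± 3.73 CPM (SD, n = 3) in L-Pha low and 27.8 ± 3.83 CPM (SD, n = 3) in L-Pha high, with a log2 fold change of -0.42 (SE 0.25), a 95% interval of -0.96 to 0.13 and an edgeR p of 0.121 (adjusted p = 1.00). Aldoa, the muscle-type aldolase, ranged over 225 to 350.3 CPM in L-Pha low and 228 to 269 CPM in L-Pha high. Gpi1, which turns glucose 6-phosphate into fructose 6-phosphate, ranged over 92.8 to 199 CPM in L-Pha low and 109 to 151 CPM in L-Pha high. Tpi1, which interconverts the triose phosphates, ranged over 233 to 352 CPM in L-Pha low and 219 to 297 CPM in L-Pha high. In Aldoa, Gpi1 and Tpi1 alike L-Pha low library 2 was the highest of the 6 libraries. Their log2 fold changes of -0.15, -0.10 and -0.13 turned to 0.05, 0.26 and 0.08 without that library.

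The payoff steps from glyceraldehyde 3-phosphate to pyruvate showed no called difference, and several of these genes have near-identical copies whose counts can hold the same reads, since a read mapped to several places was counted at each of them, per the file header. Gapdh (ENSMUSG00000057666, chr6:125161715-125166467, minus strand), the dehydrogenase that feeds the ATP-yielding steps, stood at 24.8, 25.9 and 15.2 CPM in L-Pha low libraries 1, 2 and 3 and 44.5, 24.2 and 27.5 CPM in L-Pha high libraries 1, 2 and 3. L-Pha high library 1 was the highest and L-Pha low library 3 the lowest, and the other 4 libraries lay between 24.2 and 27.5 CPM. Its log2 fold change was 0.55 (SE 0.32) with an edgeR p of 0.105 (adjusted p = 1.00). That value came to 0.23 without L-Pha high library 1 and to 0.35 without L-Pha low library 3. Gapdh has 109 near-identical copies, 74 of them with counts, and its own 525 counts were 41.9% of those of gene and copies together. With the copies added in, which was chosen after seeing the data and can count a read more than once, its log2 fold change was 0.18. Even so its level was 43.6 to 84.9 CPM over the 6 libraries, under the 219 to 352 CPM of Tpi1. Whether reads of Gapdh were lost was not tested, so its level and fold change are uncertain. Pgk1, the first ATP-yielding enzyme, ranged over 707 to 1120.2 CPM in L-Pha low and 819 to 922 CPM in L-Pha high (log2 fold change -0.06), and its own counts were 49.8% of the sum with 2 copies, of which Pgk1-rs7 had 15897 counts. Eno1, which makes phosphoenolpyruvate, ranged over 238 to 417 CPM in L-Pha low and 250.2 to 346 CPM in L-Pha high (log2 fold change 0.01), with 52.0% of the counts its own beside 4858 for Eno1b. Which reads of Gapdh, Pgk1 and Eno1 belong to the gene and which to a copy is uncertain, and with copies added in Eno1 came to -0.02. Pgam1, the phosphoglycerate mutase, ranged over 324 to 346 CPM in L-Pha low and 244 to 335 CPM in L-Pha high (log2 fold change -0.22). Pkm, the pyruvate kinase gene whose splice forms 3' counts do not separate, ranged over 206 to 355 CPM in L-Pha low and 237 to 420.0 CPM in L-Pha high (log2 fold change 0.06). The sign of Pgk1 turned without L-Pha low library 3 (0.14), that of Eno1 without L-Pha low library 1 (-0.15) and that of Pkm without L-Pha high library 1 (-0.23).

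Lactate production and export overlapped between the groups. Ldha, which reduces pyruvate to lactate, ranged over 651 to 908 CPM in L-Pha low and 672 to 754 CPM in L-Pha high, with a log2 fold change of -0.11 (SE 0.21) and a 95% interval of -0.56 to 0.34. L-Pha low library 2 was the highest, and the value came to 0.04 without it. Slc16a3 encodes MCT4, the exporter that HIF induces, and ranged over 55.5 to 83.9 CPM in L-Pha low and 51.3 to 63.8 CPM in L-Pha high (log2 fold change -0.22, or -0.041 without L-Pha low library 1). Slc16a1 encodes MCT1 and ranged over 17.0 to 28.3 CPM in L-Pha low and 21.2 to 25.2 CPM in L-Pha high (log2 fold change 0.02, or -0.14 without L-Pha low library 3).

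Among the 13 hypoxia genes Ddit4 had the smallest p of all 32. Ddit4 (ENSMUSG00000020108, chr10:59949675-59951770, minus strand), also called REDD1, is induced by hypoxia and other stresses and restrains mTORC1. It stood at 298, 193 and 277 CPM in L-Pha low libraries 1, 2 and 3 and 379.8, 408 and 334 CPM in L-Pha high libraries 1, 2 and 3. All 3 L-Pha high values lay above all 3 L-Pha low values, with L-Pha low library 2 the lowest. The means were 256 ± 55.7 CPM (SD, n = 3) in L-Pha low and 374 ± 37.2 CPM (SD, n = 3) in L-Pha high. The log2 fold change was 0.55 (SE 0.23) with a 95% interval of 0.06 to 1.04, and the edgeR p was 0.031 (adjusted p = 1.00), so the difference did not pass over all genes. It ran from 0.37 without L-Pha low library 2 to 0.69 with library totals alone, kept its sign in all 16 alternatives and had an unadjusted p under 0.05 in 13 of them, with an adjusted p from 0.351 to 1.00.

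Of the oxygen sensors and the factor they control, Hif1a and Egln3 had groups that did not overlap, and none of the 3 genes was called. Hif1a (ENSMUSG00000021109, chr12:73901375-73947530, plus strand), the oxygen-regulated subunit of HIF-1 that is controlled mainly at the protein level, stood at 45.7, 49.7 and 55.1 CPM in L-Pha low libraries 1, 2 and 3 and 57.96, 57.2 and 62.2 CPM in L-Pha high libraries 1, 2 and 3. Every L-Pha high value exceeded every L-Pha low value, with means of 50.2 ± 4.74 CPM (SD, n = 3) in L-Pha low and 59.1 ± 2.72 CPM (SD, n = 3) in L-Pha high. The log2 fold change was 0.24 (SE 0.23), with a 95% interval of -0.25 to 0.73 (adjusted p = 1.00 by edgeR). Egln3 (ENSMUSG00000035105, chr12:54178981-54203860, minus strand), a prolyl hydroxylase that HIF itself induces, stood at 4.50, 3.45 and 3.70 CPM in L-Pha low libraries 1, 2 and 3 and 5.56, 6.29 and 4.63 CPM in L-Pha high libraries 1, 2 and 3, from 90 counts in all. The lowest L-Pha high and the highest L-Pha low value were 4.63 and 4.50 CPM, and the log2 fold change of 0.50 (SE 0.44) had a 95% interval of -0.44 to 1.43 (adjusted p = 1.00 by edgeR). Egln1, the main oxygen sensor, ranged over 63.2 to 111 CPM in L-Pha low and 51.5 to 87.1 CPM in L-Pha high (log2 fold change -0.21, or 0.08 without L-Pha low library 1).

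Of the genes that act on mitochondria, Bnip3 had groups that did not overlap. Bnip3 (ENSMUSG00000078566, chr7:138890836-138909519, minus strand), a mitophagy receptor of the outer membrane, stood at 64.3, 69.0 and 75.4 CPM in L-Pha low libraries 1, 2 and 3 and 60.6, 41.6 and 63.9 CPM in L-Pha high libraries 1, 2 and 3. The L-Pha high values all lay below the L-Pha low values, with library 2 of L-Pha high the lowest and the nearest neighbours at 63.9 and 64.3 CPM. Its log2 fold change was -0.33 (SE 0.24), with an edgeR p of 0.200 (adjusted p = 1.00), and it came to -0.17 without L-Pha high library 2. Bnip3l, the related receptor NIX, ranged over 85.9 to 116 CPM in L-Pha low and 81.7 to 115 CPM in L-Pha high (log2 fold change -0.19), and its own counts were 56.5% of the sum with 1 copy, Bnip3l-ps, which makes its value uncertain. Pdk1, the kinase that keeps pyruvate out of the citric acid cycle, ranged over 30.3 to 38.3 CPM in L-Pha low and 23.4 to 34.8 CPM in L-Pha high (log2 fold change -0.25). None of these genes was called in any alternative run.

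The secreted, matrix and remaining members overlapped between the groups. Vegfa, the angiogenic growth factor, ranged over 37.6 to 58.1 CPM in L-Pha low and 48.7 to 56.9 CPM in L-Pha high (log2 fold change 0.10, or -0.07 without L-Pha low library 2). Adm, which encodes the vasodilator adrenomedullin, ranged over 10.9 to 47.7 CPM in L-Pha low and 11.6 to 36.7 CPM in L-Pha high, the widest ratio of highest to lowest within L-Pha low among the 13. Its log2 fold change of -0.20 (SE 0.49) came to 0.60 without L-Pha low library 3 and to 0.11 without L-Pha high library 1. P4ha1 and P4ha2 encode the catalytic subunits of the collagen prolyl hydroxylase. P4ha1 ranged over 58.8 to 76.9 CPM in L-Pha low and 54.0 to 68.8 CPM in L-Pha high (log2 fold change -0.12) and P4ha2 over 8.14 to 22.5 CPM in L-Pha low and 9.60 to 20.9 CPM in L-Pha high (log2 fold change -0.10, or 0.34 without L-Pha low library 1). Ndrg1, a stress-induced gene used as a hypoxia marker, ranged over 39.0 to 41.1 CPM in L-Pha low and 32.4 to 40.8 CPM in L-Pha high (log2 fold change -0.11). Mxi1, an antagonist of MYC that HIF induces, ranged over 13.3 to 31.2 CPM in L-Pha low and 16.5 to 26.5 CPM in L-Pha high (log2 fold change -0.10, or 0.23 without L-Pha low library 1).

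**Figure D2:**
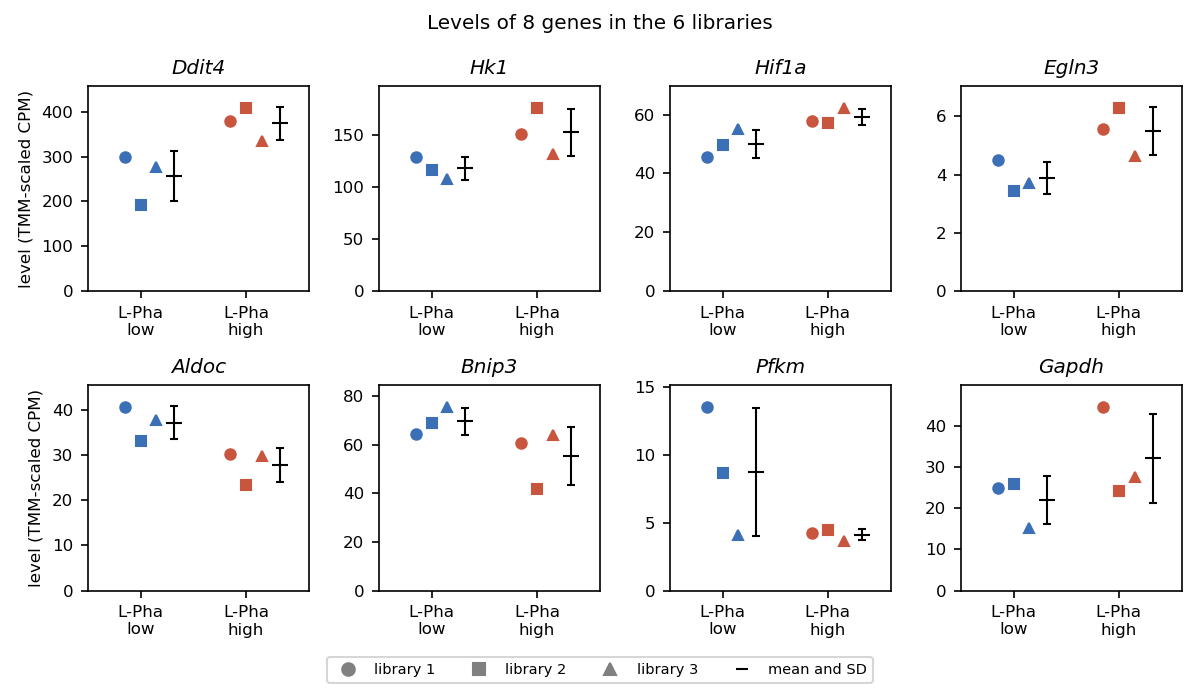
The vertical axes give the TMM-scaled CPM, from 0, of 8 genes in the 3 L-Pha low (blue) and 3 L-Pha high (red) libraries, with the library number as the marker shape and the group mean and SD in black beside the points. Ddit4, Hk1, Hif1a and Egln3 have all L-Pha high points above the L-Pha low points, Aldoc and Bnip3 have them all below, and Pfkm and Gapdh overlap.

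The mix of isozymes within a family, which needs no scaling between libraries, was compared for 8 shares, and Egln3 was the one whose groups did not overlap. Egln3 made up 3.90%, 5.18% and 4.95% of the Egln1 and Egln3 counts in L-Pha low libraries 1, 2 and 3 and 6.00%, 10.9% and 5.91% in the L-Pha high ones. The exact permutation p was 0.1, two-sided, the smallest that 3 against 3 libraries can give, and 0.64 after Benjamini-Hochberg adjustment over the 8 shares. The 95% exact binomial intervals, which cover counting error only, ran from 2.15% to 6.46%, 2.51% to 9.32% and 2.40% to 8.92% in L-Pha low libraries 1, 2 and 3 and from 3.75% to 9.03%, 6.86% to 16.2% and 3.27% to 9.71% in the L-Pha high ones. L-Pha high library 2 stood highest, its interval overlapping those of L-Pha low libraries 2 and 3, and without it the difference of the group means came to 1.28 percentage points from 2.92. Slc2a3 made up 38.7%, 44.4% and 33.7% of the Slc2a1 and Slc2a3 counts across the L-Pha low libraries and 43.9%, 60.8% and 52.7% across the L-Pha high libraries. L-Pha high library 1 lay just under L-Pha low library 2, so these groups overlapped (exact permutation p = 0.2, adjusted 0.64). Hk2 made up 75.3%, 75.4% and 75.9% of the Hk1 and Hk2 counts across the L-Pha low libraries and 72.6%, 64.1% and 76.6% across the L-Pha high libraries, with an exact permutation p of 0.4. The shares of Pfkp, Aldoc, Slc16a3, Bnip3 and P4ha2 had exact permutation p-values from 0.4 to 1.

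**Figure D3:**
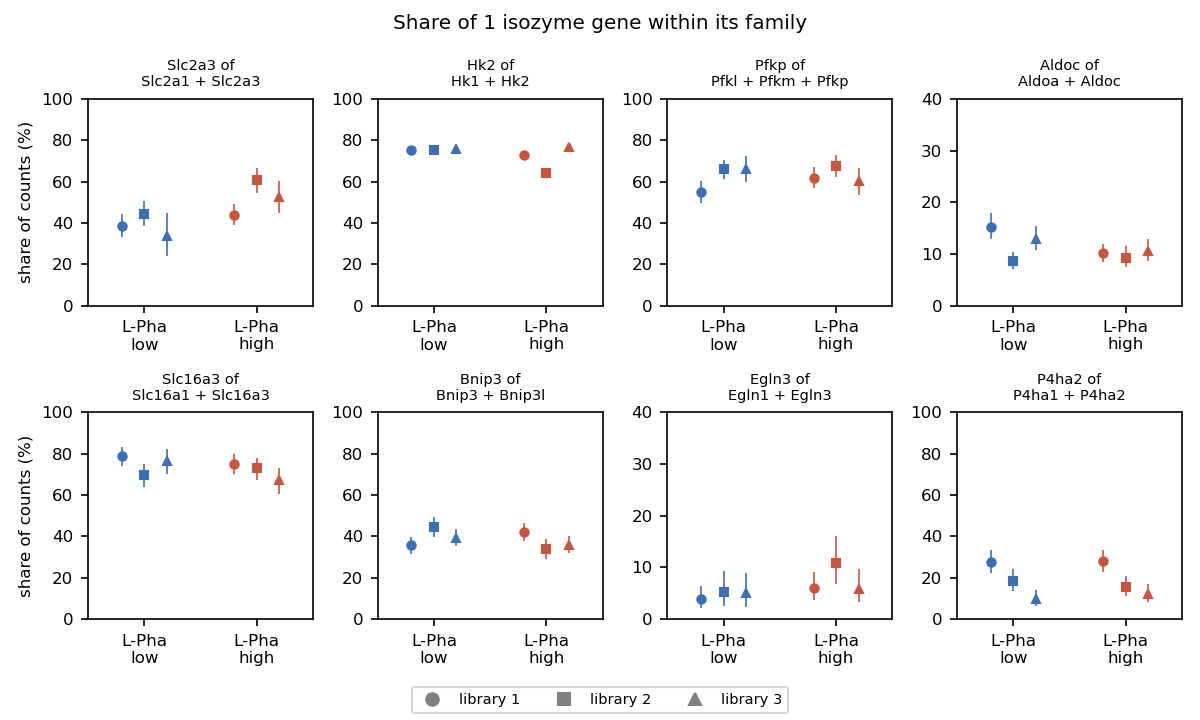
Each panel gives the share of one gene in the counts of its family (vertical axis, percent, from 0) in the 3 L-Pha low (blue) and 3 L-Pha high (red) libraries, with bars for the 95% exact binomial interval. The Egln3 share is higher in every L-Pha high library, from 5.91% to 10.9% against 3.90% to 5.18%, and the other 7 shares overlap.

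Summed over the members, the groups overlapped in both arms. The 19 glycolysis genes added up to 4105 ± 472 CPM (SD, n = 3) in L-Pha low and 3935 ± 316 CPM (SD, n = 3) in L-Pha high (exact permutation p = 0.6), a log2 ratio of -0.061 that came to 0.038 without L-Pha low library 2. The 13 hypoxia genes added up to 819.5 ± 113 CPM (SD, n = 3) and 894 ± 25.9 CPM (SD, n = 3) (exact permutation p = 0.3). For the hypoxia genes the median fold change and the summed ratio differ in sign (-0.11 and 0.13 on the log2 scale), the latter at 0.016 without L-Pha low library 2, and Ddit4 alone gave 374 of the 894 CPM in L-Pha high. All 32 genes together took 0.444% to 0.559% of a library's counts.

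Library 3 of each group stood apart from libraries 1 and 2 in ways that touch these genes. For 8 of the 19 glycolysis genes (42.1%), Slc2a1, Slc2a3, Hk1, Gpi1, Pfkm, Pfkp, Pkm and Slc16a3, library 3 was the lowest of its group in both groups, which held for 19.6% of all genes tested. For 5 of the 13 hypoxia genes (38.5%), Bnip3, Bnip3l, P4ha1, Adm and Hif1a, library 3 was the highest in both groups, which held for 18.9% of all genes tested. P4ha2 alone of the 13 was lowest and Pgk1 alone of the 19 was highest. Against the mean of libraries 1 and 2, Slc2a3 in library 3 differed by -1.94 in L-Pha low and -0.62 in L-Pha high on the log2 scale, and Slc2a1 by -1.46 and -0.63. Adm lay the other way, by 1.74 and 1.31. The summed T cell identity markers differed by -1.48 and -0.74 in the same comparison and the summed melanoma markers by 0.64 and 0.45. The summed endothelial markers differed by 1.04 and 0.87 and the erythroid ones by 0.47 and 0.90. Within the melanoma list Dct stood at 13379 CPM in L-Pha low library 3 against 7919 and 8190 CPM in libraries 1 and 2, while Pmel was lowest there, at 766 CPM against 786 and 966 CPM. Each group thus holds 1 library with lower summed T cell markers and higher summed melanoma, endothelial and erythroid markers, and the part of this in the values of the 32 genes was not tested. Without both libraries numbered 3, 16 of the 32 genes had groups that did not overlap, beside 37.0% of all genes tested, and 0 were called by edgeR. With fewer libraries the number without overlap can only stay or rise. The labels do not say what the library numbers mark.

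**Figure D4:**
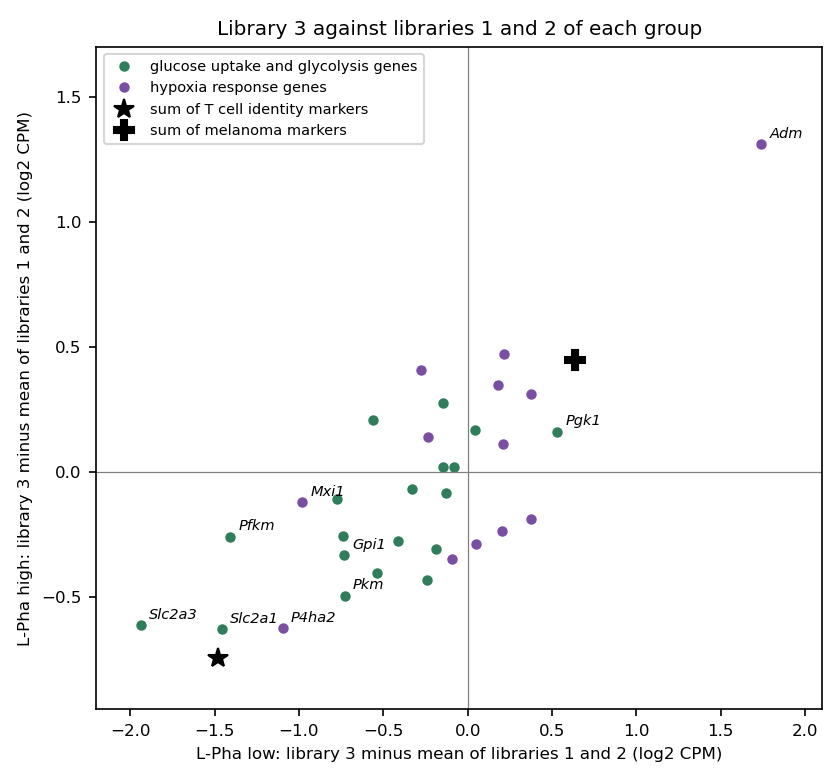
The horizontal axis gives, for L-Pha low, the log2 CPM of library 3 minus the mean of libraries 1 and 2, and the vertical axis the same for L-Pha high, with a point for each of the 32 genes (green glycolysis, purple hypoxia) and black symbols for the summed T cell and melanoma markers. Slc2a1, Slc2a3, P4ha2 and Pfkm lie near the T cell sum at the lower left, and Adm lies beyond the melanoma sum at the upper right. The endothelial and erythroid sums are not drawn.

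The rest of glucose metabolism gave the same picture of no called gene. From each list here and in the next paragraph, the genes with the smallest p are named. Groups without overlap were found for 8.38% of all genes tested. Among other glycolytic enzymes and their regulators 0 of the 16 tested of 34 genes were called, with a median log2 fold change of -0.02. An unadjusted p under 0.05 was found for 1 of the 16, beside 3.81% of all genes tested. That 1 was Txnip, which restrains glucose uptake, at 144, 104 and 77.7 CPM in L-Pha low libraries 1, 2 and 3 and 66.2, 62.3 and 60.6 CPM in L-Pha high libraries 1, 2 and 3. Every L-Pha high value lay below every L-Pha low value, with a log2 fold change of -0.79 (SE 0.26) and an adjusted p of 0.878 by edgeR. Pgm2 (-0.81) and Pygb (0.38), the latter from glycogen use, came next in that list. In the pentose phosphate, hexosamine and serine branches 0 of 17 were called, with a median of -0.01. Gpd2, which passes electrons from glycerol 3-phosphate to the respiratory chain, stood at 56.9, 42.4 and 42.9 CPM in L-Pha low libraries 1, 2 and 3 and 61.9, 106 and 73.8 CPM in L-Pha high libraries 1, 2 and 3 (log2 fold change 0.76 (SE 0.26), adjusted p = 1.00 by edgeR). Gfpt1, which opens the hexosamine branch that feeds N-glycan branching, ranged over 73.0 to 176 CPM in L-Pha low and 121 to 183 CPM in L-Pha high (log2 fold change 0.46 (SE 0.31)), and the groups overlapped. G6pdx, the entry to the pentose phosphate pathway, had a log2 fold change of -0.50. Of the genes for pyruvate entry into mitochondria 0 of the 10 tested of 14 were called, with a median of 0.10. Pdp2 (1.29), which activates pyruvate dehydrogenase, had an unadjusted p under 0.05, followed by Dld (-0.47) and Mpc1 (-0.53).

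The wider HIF system and the growth signals upstream of glycolysis held no called gene either. Among the other HIF pathway components 0 of the 15 tested of 16 were called, with a median of -0.12. Epas1, which encodes HIF-2α, stood at 10.9, 5.52 and 5.18 CPM in L-Pha low libraries 1, 2 and 3 and 24.6, 16.5 and 11.3 CPM in L-Pha high libraries 1, 2 and 3. Each L-Pha high value lay above each L-Pha low value, narrowly for the nearest pair, with a log2 fold change of 1.27 (SE 0.41) and an adjusted p of 0.839 by edgeR. Vhl, the ubiquitin ligase subunit that removes HIF-α, had a log2 fold change of -0.48 and Arnt2 one of 0.85. Among other HIF targets 0 of the 39 tested of 53 were called, with a median of 0.03. Cxcr4, a chemokine receptor, stood at 16.4, 16.9 and 18.5 CPM in L-Pha low libraries 1, 2 and 3 and 6.35, 9.88 and 11.9 CPM in L-Pha high libraries 1, 2 and 3. The L-Pha high values all lay below the L-Pha low values (log2 fold change -0.89 (SE 0.33), adjusted p = 1.00 by edgeR). Selenbp1 (-0.62) and Bhlhe40 (0.39) followed. Of growth control genes 0 of the 22 tested of 25 were called and 0 had an unadjusted p under 0.05, with a median of -0.17. Rptor, a subunit of mTORC1, had a log2 fold change of -0.70, Myc one of -0.86 and Prkaa1, a catalytic subunit of AMPK, one of -0.81.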

How the data were processed

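Bulk 3' RNA libraries of sorted tumour-infiltrating T cells were compared, 3 L-Pha high against 3 L-Pha low. The authors' deposited counts come from featureCounts 1.5.0-p3 over the exons of Ensembl 78 genes on GRCm38, on 1 strand, with multi-mapping and overlapping reads counted for every gene they hit, per the file headers. The submitters' processing notes also name bcl2fastq, FastQC, cutadapt, HISAT2 and limma, and they name hg19 where the header has GRCm38. The deposited log2 table is the authors' own, with its normalization not given in the sources used here, and served only as an alternative. Genes were matched by Ensembl ID to GENCODE M21, which named 97.5% of 43629.

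Counts were tested with edgeR 4.0.16 (TMM, filterByExpr, robust quasi-likelihood, group only, 11183 genes, two-sided, Benjamini-Hochberg, threshold 0.05), with R 4.3.3. The script was tested on simulated data. Intervals are 95% from the same fit. Sums and shares had exact permutation tests, two-sided. Alternatives were DESeq2 1.42.0, limma 3.58.1, other scalings and filters, a replicate block and libraries left out. Near-identical copies were found with BLAST+ 2.17.0 as transcripts with 95% identity over at least 200 bases of the last 400. Library totals were 2610729 to 3521117 counts, which limits low genes most.

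The members and lists were chosen with earlier results of these data known. All 32 members are named. Values of every library are given for those called, those without overlap and the 8 with the smallest p, and up to 3 genes per other list by smallest p. Marker lists are given by their summed level.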

Additional observations from a re-analysis of the deposited data

How the results depend on the processing

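None of the 32 genes was called in any alternative (lowest adjusted p 0.271). Of 519 log2 fold changes over the alternatives, 479 kept their sign and 40 turned. With library totals alone as the scaling, Gpi1 0.037, Tpi1 0.0019, Pgk1 0.040, Ldha 0.011, P4ha2 0.015 and Mxi1 0.019 turned to these values. Eno1 turned to -0.0022 with DESeq2 size factors and to -0.024 with copies added in, the latter chosen after seeing the data. Without both libraries numbered 3, Hk2 -0.069, Pgk1 0.087, Slc16a1 -0.21, Ndrg1 0.00097 and Adm 0.046 turned. Leaving out each library in turn, the ranges of genes that turned were Slc2a1 -0.70 to 0.024, Slc2a3 -0.052 to 0.61, Hk2 -0.027 to 0.18, Gpi1 -0.31 to 0.26, Aldoa -0.28 to 0.052, Tpi1 -0.26 to 0.076, Pgk1 -0.20 to 0.14, Eno1 -0.15 to 0.28, Pkm -0.23 to 0.21, Ldha -0.20 to 0.040, Slc16a1 -0.14 to 0.22, Vegfa -0.066 to 0.24, Egln1 -0.39 to 0.079, P4ha1 -0.23 to 0.018, P4ha2 -0.55 to 0.34, Adm -0.76 to 0.60 and Mxi1 -0.36 to 0.23. For each of these turns the cause was not tested.

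Over all genes, the main test called 0 higher and 1 lower. Without a filter on low counts 20 were higher and 27 lower, and by DESeq2 8 and 20. limma-voom, library totals alone, limma with the deposited log2 values and the analysis without both libraries numbered 3 called 0 lower. Leaving out 1 library gave 0 to 1 higher and 0 to 7 lower. The glycolysis median ran from -0.23 without L-Pha high library 1 to 0.047 without L-Pha low library 2. The hypoxia median ran from -0.17 to 0.079 when a library was left out, the latter without L-Pha low library 1. Of the 32 genes, those without overlap numbered 3 with library totals alone, beside 9.27% of all genes tested. They numbered 12 without L-Pha low library 3 (28.8% of all genes tested), 10 without L-Pha high library 3 (15.7%) and 16 without both (37.0%). Without 1 of the libraries numbered 1 or 2 they numbered 6 to 8, and the share over all genes is not given here. Leaving libraries out can only keep or raise the number.

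With the replicate number as a block, edgeR called 20 genes higher and 23 lower over all genes but 0 of the 32. Pfkm, Gapdh and Ddit4 had an unadjusted p under 0.05 there. The share of all genes under that p with the block is not given here, so this is not read as a result about the members. Deviations of same-numbered libraries correlated at 0.37, 0.08 and 0.47 over 11183 genes. L-Pha low library 2 correlated best with L-Pha high library 1 (0.13), while L-Pha high library 2 correlated best with L-Pha low library 2 (0.08). Over the 7692 genes above 10 CPM the same-numbered correlations were 0.49, 0.10 and 0.56. The library titles share numbers between the groups without saying that a number marks a pair. Libraries numbered 2 fell under 0.1 over all genes tested. Same-numbered libraries were therefore not taken as pairs, but libraries 1 and 3 deviated together. If the numbers do mark pairs, the main test, the permutation tests and the counts of overlap leave that pairing out. Adm, Pfkm and Egln3 had the largest standard errors of the 32 (0.49, 0.47 and 0.44), from 435, 120 and 90 counts.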
